A study of Mus musculus with 6 samples.

Results

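The accessibility of 10 genes that encode secreted signals of the epithelium was followed before and after injury: the neutrophil-attracting chemokines Cxcl1, Cxcl2, Cxcl3, Cxcl5 and Ppbp, the chemokines Cxcl14, Cxcl10, Ccl2 and Ccl20, and the cytokine gene Il6. They were chosen by name, with earlier results of these data known, and are 10 of the 21938 protein-coding genes of the GENCODE annotation used. All 10 passed the filter on low counts at their promoters, Ppbp through its injured libraries. The data were 6 single-nucleus ATAC-seq libraries (10x Genomics) from sorted cells of the mouse olfactory epithelium, the sheet of neurons, supporting cells and stem cells that lines the upper nasal cavity. All 6 came from adult Krt5CreER; Rosa26LSL-YFP/LSL-YFP mice, in which Cre under Krt5 control switches on YFP in horizontal basal cells (HBCs), a reserve stem cell population, so that their descendants carry YFP as well. The 3 uninjured libraries were from control mice. The 3 injured libraries were from mice taken 24 h after methimazole was injected into the peritoneum, a drug that destroys most cells above the basal layer. The labels call the samples biological replicates and do not say how many animals went into each. Mice of replicate 1 were 8 weeks old, those of replicate 2 were 6 weeks old and those of replicate 3 were 6 to 7 weeks old, in both groups. Live YFP-positive cells were collected by flow cytometry before nuclei were isolated.

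Chemokines are small secreted proteins that draw leukocytes along a gradient through G protein-coupled receptors. The genes Cxcl5, Ppbp, Cxcl3, Cxcl1 and Cxcl2 lie in a cluster on mouse chromosome 5 and encode ligands of CXCR2, a chemokine receptor of neutrophils. CXCL14 is made at rest by many epithelia, CXCL10 attracts activated T cells through CXCR3, CCL2 attracts monocytes through CCR2, and CCL20 attracts lymphocytes and dendritic cells that bear CCR6. IL-6 signals through the shared receptor subunit gp130 to STAT3. Several of these genes are textbook targets of NF-kB, a transcription factor activated by interleukin 1, tumour necrosis factor and bacterial products.

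The unit counted was the Tn5 cut site, the end of a sequenced fragment, which marks DNA that was open to the transposase. Accessibility is not transcription, and no RNA was measured in these files. The 4476 barcodes with at least 2000 fragments held between 14825320 and 44875242 cut sites per library, in 420 to 1338 barcodes. Of these barcodes, 3598 fell in clusters in which the basal cell list had the highest median of the marker lists, by a set margin over the second list. These clusters are called HBC-like. Only clusters 1 and 4 of them had basal markers among their 10 leading genes. Cluster 2 was led by Reg3g and also by Bpifa1, a gene of airway and gland secretion, and its second list was that of gland and respiratory cells. Cluster 6, mostly of injured barcodes, had the same second list. It shared Reg3g, Prss30, Depp1, Serpina3n and Crygf with the 10 leading genes of cluster 2, and cluster 13 shared Fam71a, Reg3g and Depp1. A finer clustering set apart 139 barcodes of the gland and respiratory kind. The summed level of 7 gland and respiratory markers overlapped between the groups, with 135 to 189 CPM (cut sites per 1000000 of the library) in uninjured and 113 to 140 in injured libraries. Uninjured replicate 3 and injured replicate 3 shared 34 barcodes, and 82002 fragments in them were identical in both libraries, which was 5.98% of the fragments of these barcodes in the uninjured library and 4.38% in the injured one. Results are therefore also given without these barcodes. The summed gene-body level of 10 basal markers was 681 to 785 CPM in uninjured and 585 to 658 in injured libraries, and none of the 10 was without cut sites. The summed level of 15 immune markers was 110 to 112 in uninjured and 128 to 133 in injured libraries, and that of 6 neutrophil markers was 6.07 to 8.30 and 10.2 to 16.3, with no marker at 0. Both lists were higher in every injured library than in any uninjured one, and 11 barcodes formed a neutrophil-like cluster, 1 uninjured and 10 injured. The summed level of 6 endothelial markers separated the groups too, with 125 to 134 in uninjured and 136 to 142 in injured libraries. The summed level of 6 markers of sustentacular cells, the supporting cells of this epithelium, was 60.9 to 89.0 in uninjured and 40.1 to 42.8 in injured libraries, with no marker at 0 and 2 of the 6 promoters called lower. Of 174 sustentacular-like barcodes 153 were uninjured and 21 injured. The finer clustering named only 104 barcodes so, 5, 66 and 32 in the uninjured libraries and 1 in injured replicate 3. The results below are therefore also given for HBC-like barcodes alone.

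The promoters of the members formed a graded series at rest, from Il6 down to Ccl2 and Ppbp, which were near 0. Levels are the cut sites within 1 kb of the gene start, as CPM scaled by the TMM factors of the fit, and the windows have the same length for every gene. In uninjured libraries the order was Il6 at 17.8 ± 6.78 (SD, n = 3), Cxcl14 at 16.4 ± 6.32, Cxcl1 at 13.7 ± 4.00, Cxcl10 at 6.20 ± 0.53, Cxcl2 at 3.83 ± 0.56, Cxcl5 at 3.52 ± 0.52, Ccl20 at 3.24 ± 1.28, Cxcl3 at 1.91 ± 0.62, Ccl2 at 0.58 ± 0.21 and Ppbp at 0.18 ± 0.18. Il6, Cxcl14 and Cxcl1 lay within each other's spread, as did Cxcl2, Cxcl5 and Ccl20. The median promoter tested had 14.6 scaled CPM, so that Il6, at the 50.0th percentile by its mean over the 6 libraries, and Cxcl14, at the 52.3rd, were of ordinary openness, while Ccl2 stood at the 12.6th percentile and Ppbp at the 19.1st. After injury the order was Cxcl14 at 14.7 ± 2.79, Il6 at 11.4 ± 1.69, Cxcl1 at 10.6 ± 2.78, Cxcl10 at 9.43 ± 3.25, Cxcl2 at 8.53 ± 1.99, Cxcl5 at 5.03 ± 1.07, Cxcl3 at 3.78 ± 0.53, Ppbp at 3.77 ± 1.92, Ccl20 at 3.25 ± 0.27 and Ccl2 at 1.183 ± 0.40. The first 4 of these, Cxcl14 to Cxcl10, then overlapped in their spread.

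**Figure D1:**
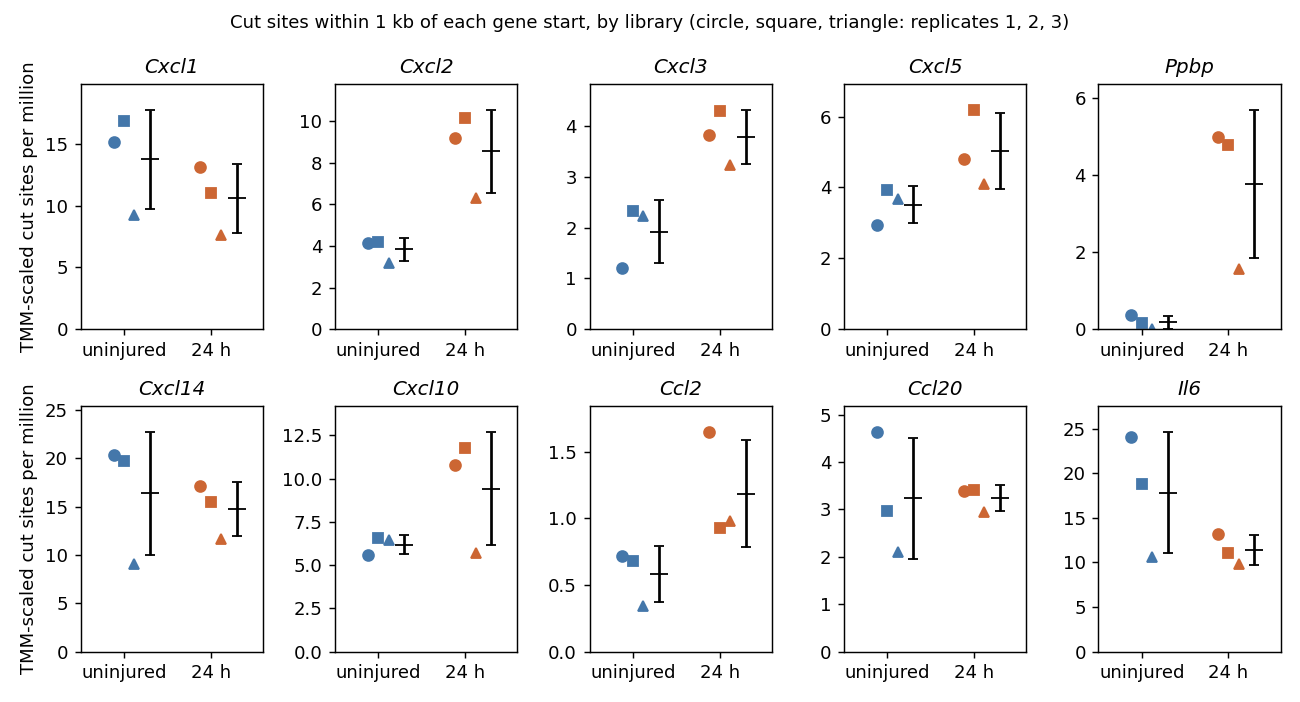
Cut sites within 1 kb of the start of each of the 10 genes, in TMM-scaled CPM (linear axis from 0, with its own scale for each gene), for 3 uninjured libraries (blue) and 3 libraries 24 h after injury (orange), with the mean and SD of each group in black. The injured libraries of Ppbp sit between 1.55 and 4.99 and all uninjured ones at or below 0.36, whereas the groups overlap for Cxcl1, Cxcl14, Cxcl10, Ccl20 and Il6.

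The sequences before the start are shown for the members on which the promoter results turn, since the 3 cluster genes Cxcl1, Cxcl2 and Cxcl3 share a sequence word there that Ppbp lacks. Each is the 200 bases before the RefSeq start (GRCm38.p6, chromosome 5, plus strand), read from the promoter table, which held 8 of the 10 members and not Cxcl5 or Ccl2. The RefSeq start of Cxcl2 lies 28 bases and that of Cxcl1 4 bases into the GENCODE transcript. Capitals mark matches on either strand to an NF-kB word (GGNNTTTCC), a C/EBP word (TTGCNNAA), a TEAD word (GGAATG), an AP-1 word (TGANTCA), an interferon response word (AAANNGAAA) or the TATA word (TATAAA), and no matches overlapped in the windows printed.
Ppbp, chr5:90768318-90768517: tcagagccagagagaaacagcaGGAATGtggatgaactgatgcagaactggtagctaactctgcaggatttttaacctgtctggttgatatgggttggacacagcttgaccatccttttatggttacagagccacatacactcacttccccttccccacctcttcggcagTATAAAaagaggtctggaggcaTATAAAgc
Cxcl1, chr5:90891045-90891244: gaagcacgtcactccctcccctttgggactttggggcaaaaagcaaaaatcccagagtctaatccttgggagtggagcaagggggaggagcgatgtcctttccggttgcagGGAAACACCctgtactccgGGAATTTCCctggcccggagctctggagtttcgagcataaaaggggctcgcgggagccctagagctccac
Cxcl2, chr5:90903699-90903898: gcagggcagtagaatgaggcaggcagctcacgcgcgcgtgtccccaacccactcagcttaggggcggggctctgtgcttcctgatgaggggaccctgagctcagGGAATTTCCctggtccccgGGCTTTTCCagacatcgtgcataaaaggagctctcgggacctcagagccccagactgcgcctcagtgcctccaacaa
Cxcl3, chr5:90785901-90786100: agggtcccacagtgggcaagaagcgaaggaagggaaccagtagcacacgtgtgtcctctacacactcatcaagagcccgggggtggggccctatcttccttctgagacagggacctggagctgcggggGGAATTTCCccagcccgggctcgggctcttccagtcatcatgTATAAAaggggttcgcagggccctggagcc
Il6, chr5:30012914-30013113: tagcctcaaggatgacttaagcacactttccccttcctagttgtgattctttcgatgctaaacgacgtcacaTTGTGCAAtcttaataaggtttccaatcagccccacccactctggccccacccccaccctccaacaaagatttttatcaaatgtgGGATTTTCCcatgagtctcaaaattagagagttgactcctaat

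The word GGAATTTCC stood 70 bases before the start in Cxcl1, 96 bases in Cxcl2 and 72 bases in Cxcl3, counted from its first base, Cxcl1 held a second match, GGAAACACC, at 89 bases and Cxcl2 another, GGCTTTTCC, at 77 bases. The NF-kB word was found in 6 of the 8 promoters, those of Cxcl1, Cxcl2, Cxcl3, Cxcl10, Ccl20 and Il6, against 4.05% of 32851 RefSeq promoter windows of the same length. In Il6 it was GGATTTTCC at 43 bases, with a C/EBP word, TTGTGCAA, at 128 bases. Ppbp held no match to the NF-kB word and had 2 TATA words, at 30 and 8 bases, and a TEAD word at 178 bases. The TATA word was found in 9.96% of all promoter windows and the TEAD word in 10.1%. A match describes the letters and does not show that a factor was bound.

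After injury 2 of the 10 member promoters were called higher, Ppbp and Cxcl2, and none lower (edgeR quasi-likelihood test over 17163 promoters, Benjamini-Hochberg adjusted p under 0.05). Over all promoters tested, 2.21% were called higher and 1.71% lower. At an unadjusted p under 0.05, 5 members were higher and 0 lower, beside 10.4% and 11.4% of all promoters, and DESeq2 called 2 higher and 0 lower, beside 3.78% and 2.97% of its 16452 promoters. The median change of the 10 members was 0.55 on the log2 scale, beside 0.00 for all promoters tested, and 7 of the 10 values were above 0. In HBC-like barcodes the same 2 members were called, with 4.53% of 15898 promoters called higher and 2.6% lower. HBC-like barcodes named from a finer clustering (Leiden resolution 1) leave out cluster 18 of that clustering. It held 495 barcodes, 292, 134 and 68 in the injured libraries and 1 in an uninjured one, with Ppbp among its 10 leading genes. Its best list was that of basal cells (median log2 difference 0.71), but the fibroblast list (0.62) was too close for a name to be given. In the HBC-like barcodes of the finer clustering Ppbp did not pass the filter on low counts. No member was called in them, beside 1.8% of 15451 promoters higher and 0.738% lower.

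Ppbp, which encodes pro-platelet basic protein, the precursor of the chemokine CXCL7, rose from near 0 to a level still below that of the median promoter. Its promoter (chr5:90767518-90769518) held 6, 6 and 0 cut sites in the 3 uninjured libraries and 197, 98 and 54 in the injured ones, which is 0.36, 0.17 and 0 against 4.99, 4.77 and 1.55 scaled CPM. The groups did not overlap, and injured replicate 3 was the lowest of the injured libraries. With so few uninjured cut sites, this promoter passed the filter on low counts only through the group in which it was high. The test below is to be read with that limit. The log2 change was 4.64 ± 0.78 (SE, n = 3 per group), with an adjusted p of 0.0120 by edgeR's quasi-likelihood test. In HBC-like barcodes alone it was 4.68 (adjusted p = 0.00154 by the same test), and without the shared barcodes 4.63 (adjusted p = 0.00659). The call was lost without uninjured replicate 2 (4.81, adjusted p = 0.0801) and without injured replicate 2 (4.43, adjusted p = 0.0644).

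Cxcl2, also called MIP-2, was about doubled in level. Its promoter (chr5:90902871-90904871) had 4.14, 4.17 and 3.18 scaled CPM in uninjured and 9.16, 10.1 and 6.30 in injured libraries, from 69 to 362 cut sites each. All 3 injured libraries were above all uninjured ones. The log2 change was 1.16 ± 0.23 (SE), with an adjusted p of 0.0174 by edgeR's test, and it was 1.21 (adjusted p = 0.00453) in HBC-like barcodes and 1.184 (adjusted p = 0.0119) without the shared barcodes. In the HBC-like barcodes of the finer clustering it was 0.85 (adjusted p = 0.104). In fits that left out 1 library, adjusted p rose to between 0.0649 and 0.108 without replicate 1 or 2 of either group. Beside these values, the 11 neutrophil-like barcodes held 27 cut sites at the Cxcl2 promoter, or 49.3 CPM (exact Poisson 95% interval 32.5 to 71.8, counting error only), against 6.81 CPM in HBC-like barcodes. They held none at the Ppbp promoter, which in so few barcodes allows up to 6.74 CPM. HBC-like barcodes of the injured libraries had 4.82, 5.09 and 2.15 CPM there, so this 0 cannot tell the classes apart.

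The other cluster members were not called. Cxcl3 had 1.2, 2.32 and 2.22 scaled CPM in uninjured and 3.82, 4.29 and 3.22 in injured libraries, with no overlap between the groups, and its log2 change of 0.95 ± 0.31 (SE) missed the threshold (adjusted p = 0.0993 by edgeR's test), which it passed with the replicate block (0.98, adjusted p = 0.0457). Cxcl5, known in humans as the epithelial neutrophil activator, had 2.94 to 3.94 in uninjured and 4.09 to 6.19 in injured libraries, again without overlap (log2 change 0.50 ± 0.25, adjusted p = 0.265). Cxcl1, also called KC, was the most open of the cluster at rest. It had 15.1, 16.9 and 9.24 in uninjured and 13.1, 11.01 and 7.62 in injured libraries, which overlap (log2 change −0.37 ± 0.25, adjusted p = 0.410).

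Outside the cluster no member promoter was called. Cxcl10 had 5.59, 6.55 and 6.45 scaled CPM in uninjured and 10.8, 11.8 and 5.73 in injured libraries. Injured replicate 3 was within the uninjured range (log2 change 0.59 ± 0.24, adjusted p = 0.171 by edgeR's test), and without that library the promoter was called (0.86, adjusted p = 0.00810). Ccl2 was thinly covered, with 12, 24 and 12 cut sites against 65, 19 and 34 (log2 change 1.06 ± 0.49, adjusted p = 0.226). In scaled CPM these were 0.72, 0.68 and 0.34 against 1.65, 0.93 and 0.98, without overlap, but the groups overlapped in HBC-like barcodes. Ccl20 had 4.62, 2.98 and 2.10 scaled CPM in uninjured and 3.39, 3.41 and 2.93 in injured libraries (log2 change 0.03 ± 0.31, adjusted p = 0.970). Cxcl14 had 20.3, 19.7 and 9.07 against 17.1, 15.5 and 11.7 (log2 change −0.14 ± 0.32, adjusted p = 0.842). Il6 had 24.0, 18.8 and 10.6 against 13.2, 11.1 and 9.84 (log2 change −0.63 ± 0.28, adjusted p = 0.237). For Cxcl1, Cxcl14 and Il6 uninjured replicate 3 was the lowest of its group, and without it the lower level of Il6 was called (−0.91, adjusted p = 0.00430). The Il6 promoter was also called lower with the replicate block (−0.59, adjusted p = 0.0190 by edgeR's test). Scaling by total cut sites set the median promoter to −0.28, and Cxcl1 and Il6 were then called lower (−0.66 and −0.92). When TMM factors were taken from 10 kb bins, the median promoter was at −0.54. Cxcl1, Il6 and Cxcl14 were then called lower (−0.93, −1.19 and −0.70), and Cxcl2 was no longer called (0.59, adjusted p = 0.0633). The split of member calls was 2 higher and 0 lower with the reported scaling, 2 and 2 with total scaling and 1 and 3 with bin scaling. Of all promoters, total scaling called 2.43% higher and 38.5% lower and bin scaling 1.58% and 57.3%, so that the members called lower were a smaller share than that of all promoters in both.

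The share of barcodes with a cut site at the promoter was compared after each barcode had been thinned to 2000 fragments. For Ppbp it was 0, 0.22 and 0% in uninjured and 0.45, 0.71 and 0.40% in injured libraries, and for Cxcl2 it was 0.66, 0.67 and 0.48% against 1.94, 2.62 and 1.07%. Both had an exact two-sided permutation p of 0.1, which is the smallest that 3 against 3 allows. At this thinned depth the shares rest on few barcodes, between 0 and 6 per library for Ppbp, where a count of 0 allows up to 3 barcodes (counting error only). Without thinning the shares were 0.22, 0.34 and 0% against 5.83, 6.43 and 2.01% for Ppbp. None of the other 8 members reached a p of 0.1 in the thinned shares.

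In the chemokine cluster as a whole, accessibility after injury was gained in the spaces between the genes as well as at the Ppbp start. The window of 207 kb from 30 kb before Cxcl5 to 30 kb past Cxcl2 (chr5:90729360-90935938) also holds Pf4, Cxcl15 and the start of Mthfd2l. It had 110, 115 and 113 scaled CPM in uninjured and 151, 156 and 128 in injured libraries, with no overlap. The log2 change was 0.36 ± 0.09 (SE), with an adjusted p of 0.0346 by edgeR's test over 21462 gene loci, of which 4.52% were called higher and 5.24% lower. It was 0.36 (adjusted p = 0.0136) in HBC-like barcodes and 0.35 (adjusted p = 0.0343) without the shared barcodes. The call was lost in the HBC-like barcodes of the finer clustering (0.25, adjusted p = 0.0962), without each of 5 libraries, all but injured replicate 3 (adjusted p 0.0504 to 0.141), and with bin scaling, which moved the median locus to −0.32 and the cluster to 0.02 (adjusted p = 0.913).

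Of 67 tiles of 500 bases tested in the cluster, 12 were called higher and 1 lower, beside 4.84% higher and 1.66% lower among 397121 tiles in the genome. Over the 6 loci 17 tiles were called higher and 10 lower of 162 tested, and 9 and 19 with bin scaling, which called 3.33% of all tiles higher and 5.03% lower. Without the shared barcodes the counts were 21 and 9, beside 5.96% and 1.46% of all tiles. In HBC-like barcodes they were 21 and 13, beside 9.43% and 3.4%, and in those of the finer clustering 8 and 7, beside 4.83% and 1.23%. Adjoining called tiles of 1 direction, joined where at most 1 tile lay between them, gave 16 stretches, 13 higher and 3 lower. They were drawn after the tile results were known and are described without a test of their own. All 11 in the cluster were annotated as intergenic.

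**Figure D2:**
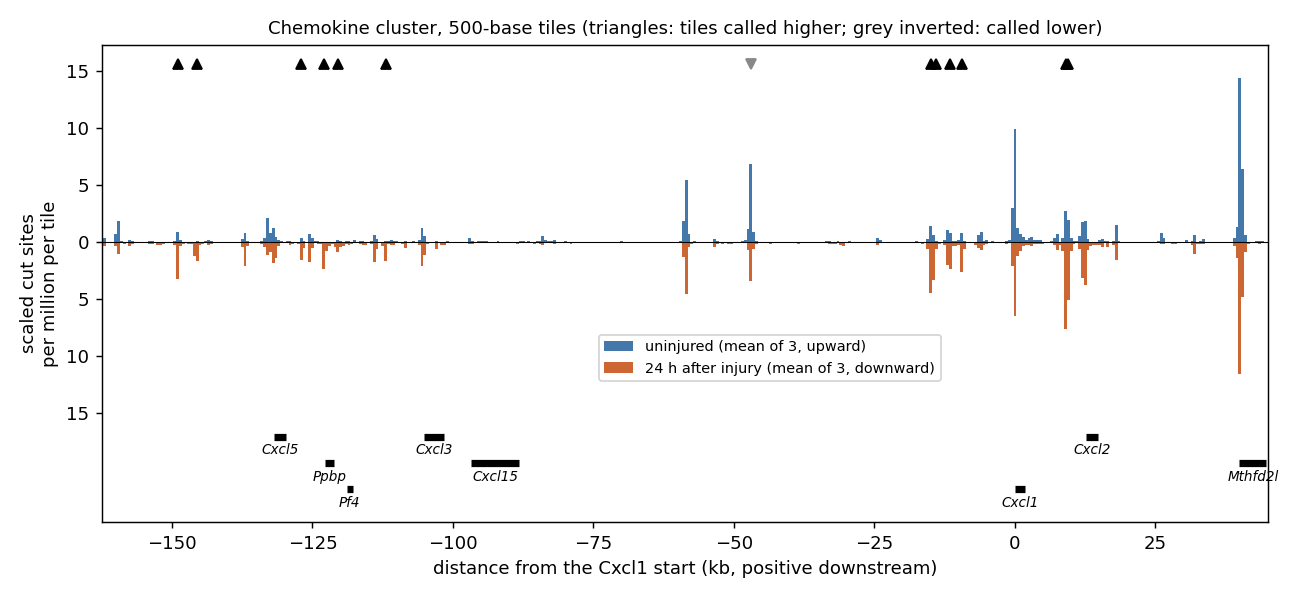
Mean TMM-scaled CPM in 500-base tiles across the chemokine cluster, uninjured upward in blue and 24 h after injury downward in orange (3 libraries each), against distance from the Cxcl1 start in kb, with protein-coding genes drawn to scale beneath. Black triangles mark the 12 tiles called higher and the grey inverted triangle the 1 called lower, and the called tiles lie between the genes and next to the Ppbp start rather than at the Cxcl1 start.

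At the 5′ side of the cluster the called tiles surrounded Ppbp and Pf4, which encodes platelet factor 4. The tile just before the Ppbp start (chr5:90768001-90768500) held 1, 4 and 0 cut sites in uninjured and 152, 50 and 38 in injured libraries, a log2 change of 5.18 ± 0.79 (SE, adjusted p = 0.00522 by edgeR's test). It was the tile with the largest change of the cluster, and it was called in 17 other settings but had too few counts to be tested in the HBC-like barcodes of the finer clustering. A tile 13.6 kb before Cxcl5 (chr5:90745501-90746000) had 0, 5 and 4 cut sites against 116, 38 and 16 (3.95 ± 0.82, adjusted p = 0.0171). A tile 6.9 kb before Cxcl3 (chr5:90779001-90779500) had 0, 9 and 6 against 111, 37 and 22 (3.26 ± 0.74, adjusted p = 0.0259). In these 3 tiles each injured library was above each uninjured one, which was a condition for naming them, and injured replicate 3 was the lowest injured library. The last 2 tiles lost their calls without 1 library in 4 and 5 of the 6 such fits (adjusted p 0.0546 to 0.108). In the HBC-like barcodes of the finer clustering the tile before Cxcl5 was called (4.22, adjusted p = 0.0103) and the tile before Cxcl3 was not tested. A further 3 tiles on this side were called higher, 17.1 kb before Cxcl5, 4.3 kb before Ppbp and 2.2 kb past its start, with log2 changes from 1.84 to 2.34. The tile past the Ppbp start was not tested in the HBC-like barcodes of the finer clustering.

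At the 3′ side the gains described here lay before Cxcl1 and Cxcl2. The stretch 3.4 kb before Cxcl2 (chr5:90900001-90901000) had 3.81, 6.08 and 4.12 scaled CPM in uninjured and 16.7, 12.1 and 9.33 in injured libraries, and the larger of its tile changes was 1.46 ± 0.27 (SE, adjusted p = 0.0108 by edgeR's test). A further 2 tiles, 11.5 and 9.5 kb before Cxcl1, were called higher with changes of 1.42 and 1.68, from uninjured means of 0.85 and 0.81 scaled CPM. In the HBC-like barcodes of the finer clustering the tile 9.5 kb before Cxcl1 was not called (1.22, adjusted p = 0.0916). Nor was the second tile of the stretch before Cxcl2 (1.26, adjusted p = 0.0517). The tile called lower lies 47.0 kb before Cxcl1 (chr5:90844001-90844500), with 8.39, 7.15 and 4.99 against 3.61, 2.56 and 4.06. Its change of −0.99 ± 0.25 (adjusted p = 0.0412), called in 7 of 17 other settings, was not called in HBC-like barcodes (−0.86, adjusted p = 0.0599), in those of the finer clustering (−0.54, adjusted p = 0.241) or without the shared barcodes (−0.90, adjusted p = 0.0566). The 174 sustentacular-like barcodes had 8.39 CPM there and HBC-like barcodes 5.97, and the part of the cell mixture in this change was not tested.

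At Ccl20 and Il6, whose promoters were not called, tiles away from the start were called, higher at Ccl20 and lower at Il6. The Ccl20 locus as a whole (chr1:83086766-83149167) had 71.3, 58.8 and 39.7 scaled CPM in uninjured and 78.7, 62.5 and 46.7 in injured libraries, which overlap (log2 change 0.15 ± 0.22, adjusted p = 0.660 by edgeR's test). Within it 4 of 26 tiles were called, all higher. A stretch of 3 tiles centred 3.5 kb past the Ccl20 start (chr1:83119501-83121000), in intergenic DNA just beyond the end of the gene at 83119167, had 1.81, 1.02 and 1.02 scaled CPM in uninjured and 18.2, 14.004 and 6.82 in injured libraries. The groups lay far apart, with 28, 34 and 34 cut sites against 742, 301 and 264. Its middle tile changed by 3.46 ± 0.38 (SE, adjusted p = 0.00298 by edgeR's test) and its first by 3.68 ± 0.55 (adjusted p = 0.00477), and both were called in 17 other settings and in the HBC-like barcodes of the finer clustering (3.04 and 3.07, adjusted p = 0.00168 and 0.0116). The third, at 2.83 ± 0.56 (adjusted p = 0.0143), lost its call without replicate 2 of either group or injured replicate 1 (adjusted p 0.0593 to 0.0762). The fourth tile called lies 5.0 kb before the start (chr1:83111501-83112000), with 0.45, 0.39 and 0.42 against 2.41, 1.53 and 0.96. It was not called in the HBC-like barcodes of the finer clustering (1.77, adjusted p = 0.0658).

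The Il6 locus became less accessible. Over the gene and 30 kb to each side (chr5:29983114-30049981) it had 90.1, 65.8 and 41.8 scaled CPM in uninjured and 31.8, 25.1 and 28.0 in injured libraries, without overlap. The log2 change was −1.21 ± 0.23 (SE, adjusted p = 0.0227 by edgeR's test), −1.27 (adjusted p = 0.0106) in HBC-like barcodes, −1.13 (adjusted p = 0.0282) in those of the finer clustering and −1.19 (adjusted p = 0.0194) without the shared barcodes. Without uninjured replicate 1, which was the highest, it was −0.93 (adjusted p = 0.105), and removal of uninjured replicate 2 or of either of the first 2 injured libraries also ended the call (adjusted p 0.0565 to 0.103). Of 28 tiles tested 9 were called, all lower, and 25 of 28 changes were below 0, with a median of −1.72.

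The called Il6 tiles formed 2 stretches that both spare the start. The first lies 5.6 kb before the start (chr5:30007001-30008000), over an exon of the long noncoding RNA gene A230098N10Rik, and had 19.4, 14.6 and 5.59 scaled CPM in uninjured and 4.42, 2.09 and 1.78 in injured libraries. Uninjured replicate 3 was close to injured replicate 1 there, although the groups did not overlap. In the sustentacular-like barcodes of the uninjured libraries this stretch had 35.4, 10.8 and 7.94 CPM. Those of the injured libraries, 7, 2 and 12 in number, held only 144790, 23294 and 333332 cut sites over the genome. None lay in this stretch, and so few cut sites cannot give a level. In HBC-like barcodes the stretch had 24.4, 19.1 and 7.00 in uninjured against 4.43, 2.32 and 2.97 in injured libraries. The larger of its tile changes was −2.26 ± 0.41 (SE, adjusted p = 0.0105 by edgeR's test). The second runs from a coding exon of Il6 into the intergenic DNA behind it (chr5:30019001-30024000), with 14.7, 7.60 and 7.49 against 1.42, 0.70 and 2.12. Its tile at chr5:30020501-30021000 fell from 57, 39 and 59 cut sites to 8, 1 and 9 (−3.63 ± 0.60, adjusted p = 0.00701) and was called in 17 other settings and in the HBC-like barcodes of the finer clustering (−3.20, adjusted p = 0.00843). The tiles at chr5:30019001-30019500, over that coding exon, and at chr5:30021001-30021500 changed by −3.12 ± 0.70 (adjusted p = 0.0235) and −3.08 ± 0.62 (adjusted p = 0.0156). Both lost their calls without replicate 1 of either group or injured replicate 2 (adjusted p 0.0595 to 0.122), and the former also without uninjured replicate 2 or without doublets (adjusted p = 0.0844 and 0.0546).

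**Figure D3:**
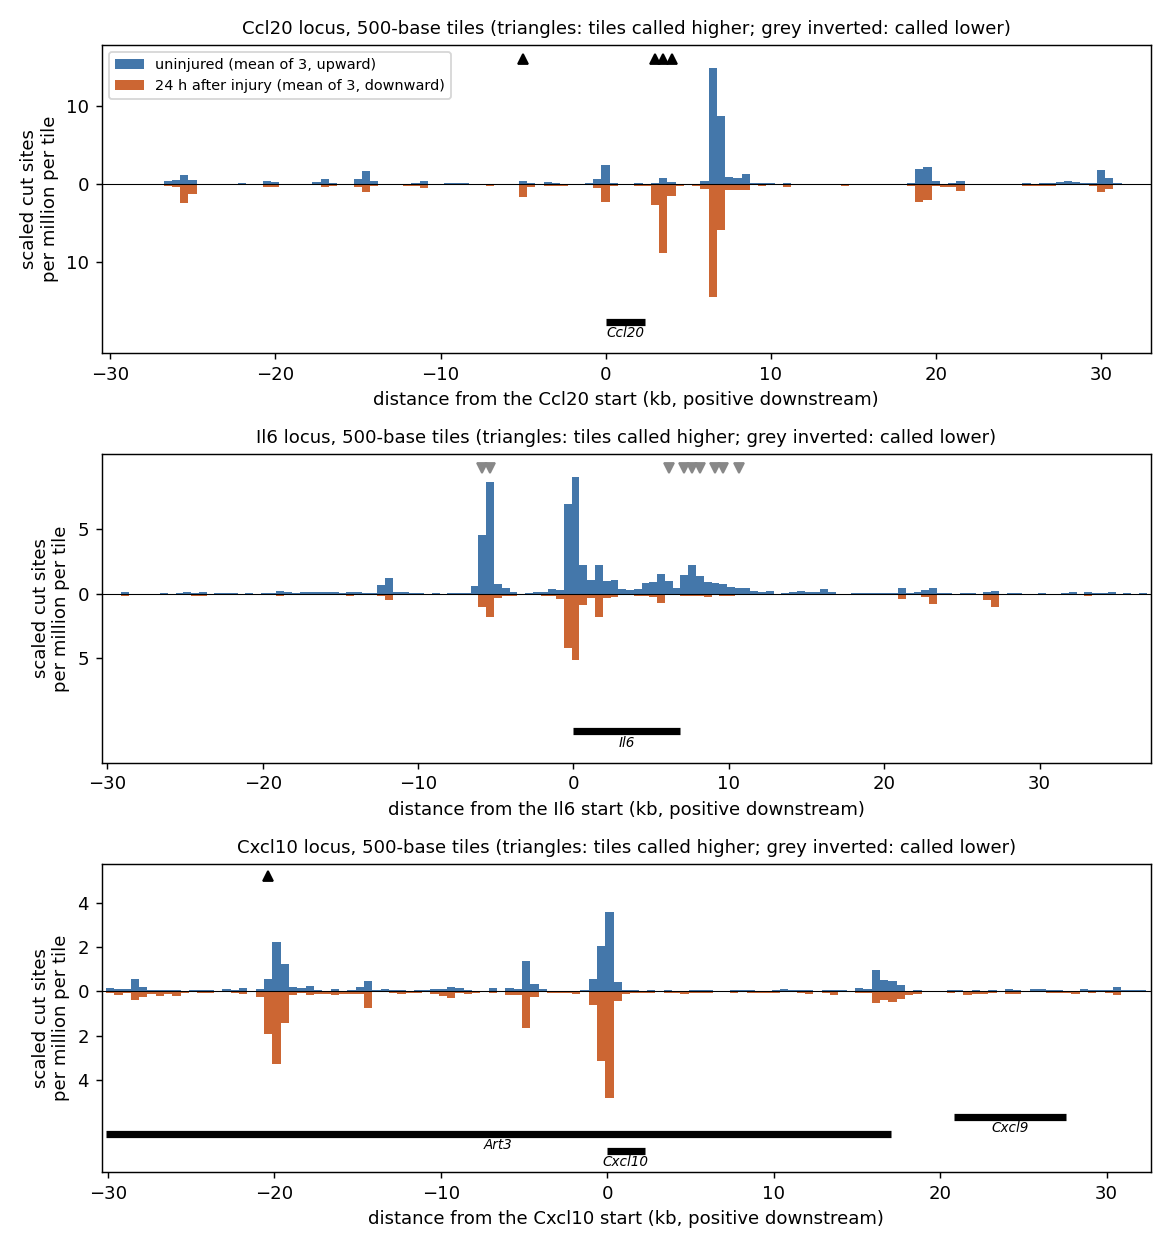
Mean TMM-scaled CPM in 500-base tiles at the Ccl20, Il6 and Cxcl10 loci, uninjured upward in blue and 24 h after injury downward in orange (3 libraries each), against distance from the start of each gene in kb, with protein-coding genes drawn beneath. Triangles mark the 4 tiles called higher at Ccl20 and the 1 at Cxcl10, and grey inverted triangles the 9 called lower at Il6, none of them at a gene start.

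At the other 3 loci 1 tile was called, where 4.84% of all tiles tested were called higher and 1.66% lower. The share at Cxcl10, 7.14%, is near these shares. At Cxcl10 (chr5:92316638-92378889) 1 of 14 tiles was called, 20.4 kb before the start in an intron of Art3 (chr5:92369001-92369500), with 9, 19 and 16 cut sites in uninjured and 85, 55 and 41 in injured libraries (1.80 ± 0.43 on the log2 scale, SE, adjusted p = 0.0318 by edgeR's test). The call was lost in 6 of 17 other settings, among them the removal of each library but injured replicate 3, and in the HBC-like barcodes of the finer clustering (1.25, adjusted p = 0.149). No tile was called among 22 at Cxcl14 or among 5 at Ccl2, and none there had an unadjusted p under 0.05. The loci of Cxcl10, Ccl2 and Cxcl14 changed by 0.34 ± 0.20, 0.69 ± 0.39 and −0.23 ± 0.15 (adjusted p = 0.270, 0.245 and 0.306 by edgeR's test).

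The sequences of 4 stretches outside promoters are shown because the results at Ccl20, Cxcl2 and Il6 turn on them and they differ in the words they hold. Each is the 200 bases around the point of highest cut site density over all 6 libraries, plus strand of GRCm38.p6, with capitals as above. For the second Il6 stretch the point was sought beyond the end of the gene.
Past Ccl20, chr1:83119985-83120184: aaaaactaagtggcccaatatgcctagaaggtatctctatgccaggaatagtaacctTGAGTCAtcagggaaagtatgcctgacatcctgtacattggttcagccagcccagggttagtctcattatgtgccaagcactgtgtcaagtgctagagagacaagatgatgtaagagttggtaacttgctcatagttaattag
Before Cxcl2, chr5:90900155-90900354: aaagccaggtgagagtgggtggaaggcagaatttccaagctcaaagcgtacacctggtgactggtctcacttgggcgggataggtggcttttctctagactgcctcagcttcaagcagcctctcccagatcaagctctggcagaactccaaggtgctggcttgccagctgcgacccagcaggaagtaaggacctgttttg
Before Il6, chr5:30007552-30007751: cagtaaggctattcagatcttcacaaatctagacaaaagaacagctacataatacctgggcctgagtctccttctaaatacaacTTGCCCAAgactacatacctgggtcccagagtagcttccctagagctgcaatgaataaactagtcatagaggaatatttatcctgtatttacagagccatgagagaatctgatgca
Past Il6, chr5:30020756-30020955: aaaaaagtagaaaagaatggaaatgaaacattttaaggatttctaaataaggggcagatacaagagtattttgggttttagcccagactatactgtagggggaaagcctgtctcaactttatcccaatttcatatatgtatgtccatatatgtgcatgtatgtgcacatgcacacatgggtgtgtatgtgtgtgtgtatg

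The AP-1 word, the site of the Fos and Jun factors, was found in 7 of the 12 stretches called higher that were read over such a window and in 0 of the 3 called lower. The 7 include the stretch past Ccl20 (TGAGTCA), the tile before the Ppbp start (TGAATCA) and the tile in Art3 (TGAGTCA). In the central 200 bases of tiles the word was found in 8.71% of all 397121 tested, 29.4% of those called higher and 2.65% of those called lower, windows that were not centred on the density of cut sites. Among the same 12 stretches the TEAD word was found in 4, the C/EBP word in 2, the interferon response word in 1, and the NF-kB and TATA words in 0. Of the 3 called lower 1 held the C/EBP word and none another. In the central 200 bases of the tiles called higher the TEAD word was found in 13.7%, beside 11.4% of all tested, and the NF-kB word in 4.09%, beside 3.61%. The C/EBP word was found in 8.66% of the tiles called higher and 8.56% of those called lower, beside 8.28% of all tested. For the interferon response word it was 8.18% of the tiles called higher, beside 9.34% of all tested. The stretch before Cxcl2 and the one past Il6 held none of the 6 words, and the one before Il6 held only a C/EBP word.

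Within HBC-like barcodes these sites differed between clusters that were themselves made from the same cut sites, so the following levels are a description. Clusters 1 and 4 held 84.0, 82.9 and 31.5% of the HBC-like barcodes of the uninjured libraries and at most 5 barcodes of an injured library. Of the 116 barcodes of cluster 4, 46.6% were called doublets, and their median depth was 5.4 times that of their libraries. This cluster held 14969274 cut sites, beside 19037486 in the 937 barcodes of cluster 1. Clusters 11 and 12 held 72.7, 68.9 and 29.3% of those of the injured libraries, and cluster 6 held 23.8, 21.6 and 45.9%. Cluster 13 was made up mostly of uninjured replicate 3, with 174 of its barcodes. Injured replicate 3, which was the lowest injured library at Ppbp, at Cxcl2 and past Ccl20, had the smallest share in clusters 11 and 12, and the part of this share in its lower levels was not tested. This library also held more neuronal signal, with 173 of the 368 barcodes like mature olfactory sensory neurons. The summed level of 8 markers of those neurons was 413 CPM in it against 221 and 259 in the other injured libraries, and that of 10 markers of globose basal cells and immature neurons was 658 against 322 and 334, with no marker at 0. The part of these cells in its levels over all barcodes was not tested.

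Levels in a block of clusters are CPM of the block's own cut sites. Past Ccl20 the injured barcodes of clusters 11 and 12 had 22.1, 21.3 and 23.2 CPM in the 3 injured libraries, a narrow range. Those of cluster 6 had 6.40, 4.57 and 5.31, and uninjured barcodes of clusters 1 and 4 had 2.33, 1.53 and 2.08. The Ppbp promoter had 5.97, 7.03 and 4.33 in clusters 11 and 12 and 0.67, 0.20 and 0 in clusters 1 and 4. In cluster 6 it had 1.74, 0 and 0, where all 12 cut sites came from injured replicate 1. The stretch before Cxcl2 was closer in both, with 18.3, 17.2 and 14.9 in clusters 11 and 12 against 12.4, 7.24 and 14.6 in cluster 6. The Cxcl2 promoter had 9.99, 12.6 and 9.68 in clusters 11 and 12 and 7.12, 3.43 and 8.85 in cluster 6.

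The 2 Il6 stretches had the reverse order. The stretch 5.6 kb before the start had 28.8, 20.7 and 19.5 CPM in clusters 1 and 4 of the uninjured libraries, 10.9, 4.57 and 4.57 in cluster 6 and 2.76, 1.80 and 1.59 in clusters 11 and 12. In cluster 2, which both groups share, it had 9.49, 11.7 and 7.28 in uninjured libraries and 3.46 in injured replicate 3, the only injured library with 50 or more barcodes there. In cluster 13 uninjured replicate 3 had 0.97, a value from 1 library in a cluster without basal markers among its 10 leading genes. The stretch past Il6 had 23.8, 10.4 and 32.4 in clusters 1 and 4, 5.23, 1.90 and 7.96 in cluster 6 and 0.20, 0.47 and 1.37 in clusters 11 and 12. In cluster 2 this stretch had 1.29, 7.13 and 5.58 in uninjured libraries, and injured replicate 3, at 2.31, lay within that range. The Il6 promoter itself stood at 35.3, 24.1 and 21.4 in clusters 1 and 4 and at 11.6, 12.6 and 10.4 in clusters 11 and 12. This order was not particular to Il6. The Cxcl14 promoter had 31.9, 29.8 and 30.3 against 17.6, 17.0 and 14.7, and that of Cxcl1 24.2, 23.5 and 14.1 against 12.1, 12.3 and 9.90. The promoters of Ppbp, Cxcl2, Cxcl3 and Ccl2 were higher in clusters 11 and 12, and those of Cxcl5, Cxcl10 and Ccl20 overlapped.

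**Figure D4:**
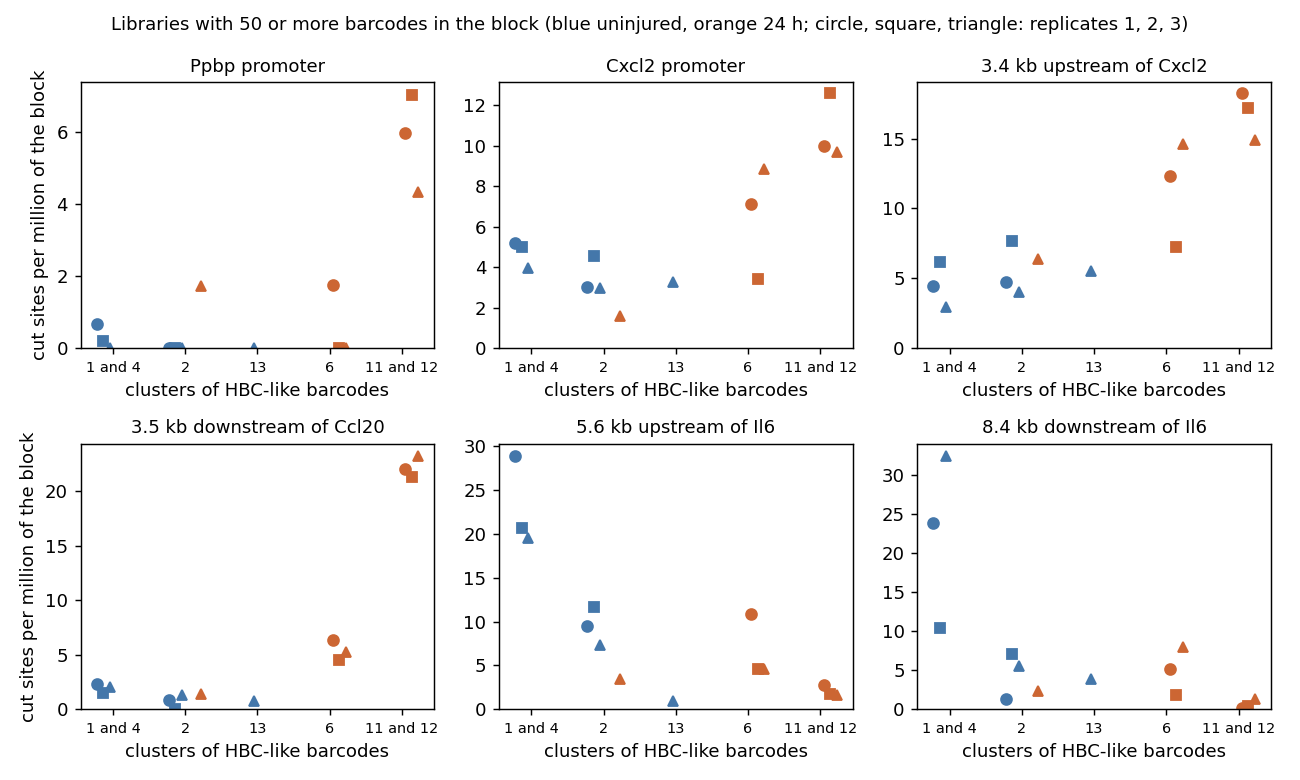
CPM, relative to all cut sites in a block of HBC-like clusters (linear axis from 0, with its own scale in each panel) at the Ppbp and Cxcl2 promoters and 4 stretches, for libraries with at least 50 barcodes in the block, uninjured in blue and 24 h after injury in orange. Past Ccl20 the 3 injured libraries in clusters 11 and 12 sit between 21.3 and 23.2 and all other points at or below 6.40, while both Il6 stretches are highest in clusters 1 and 4 and lowest in clusters 11 and 12 among the injured points.

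The genes around these signals were read from 4 lists. Of 15 other chemokine genes and 12 chemokine receptor genes with enough counts at the promoter, none was called in either direction by edgeR's test. At an unadjusted p under 0.05 the first list had 3 higher and 1 lower, and the second 3 higher and 0 lower, beside 10.4% and 11.4% of all promoters. The median changes were 0.31 and 0.52 on the log2 scale, beside 0.00 for all promoters, and 0.28 for both lists in HBC-like barcodes, over 10 and 11 genes tested. Total and bin scaling moved the median of all promoters to −0.28 and −0.54, shifts of about the size of these list medians. List medians with those scalings are not given. Of 15 genes of the interleukin 6 family and its receptors 2 were called, both lower, beside 1.71% of all promoters. At an unadjusted p under 0.05 the list had 2 higher and 4 lower, beside 10.4% and 11.4% of all promoters. Stat3, the transcription factor downstream of gp130, had 74.5, 60.9 and 63.3 scaled CPM in uninjured and 49.6, 45.2 and 49.1 in injured libraries (log2 change −0.46 ± 0.08, SE, adjusted p = 0.00996). Socs3, its feedback inhibitor, had 68.7, 58.2 and 56.6 against 50.3, 44.3 and 50.0 (−0.33 ± 0.09, adjusted p = 0.0445). Of 21 inducers and regulators 2 were called, both lower, and at an unadjusted p under 0.05 the list had 2 higher and 8 lower, to be read against the same shares. Irf1, an interferon-responsive transcription factor, had 40.7, 35.7 and 33.9 against 21.9, 23.5 and 24.7 (−0.65 ± 0.09, adjusted p = 0.00313), and Cebpd, the C/EBP delta gene, had 45.5, 41.5 and 44.6 against 31.0, 37.3 and 28.4 (−0.45 ± 0.09, adjusted p = 0.0215). All 4 promoters stayed well open after injury. In HBC-like barcodes 4 of 57 list genes were called higher and 4 lower, where 4.53% and 2.6% of all promoters were called, and all barcodes gave 0 and 4, where these shares were 2.21% and 1.71%. With total scaling the split over the 63 list genes tested was 4 and 25 and with bin scaling 1 and 29, beside the shares of all promoters given above for these scalings.

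The promoters whose levels over the 6 libraries were most like those of the chemokine cluster were sought among 12252 non-member promoters with a mean of at least 5 scaled CPM. They were Gas2l3 (Pearson r = 0.996 of log2 levels over 6 samples), Ephx3 (0.996), P4ha3 (0.994), Cfap45 (0.993) and Ampd2 (0.991). Ephx3, for example, had 5.05, 5.78 and 5.77 in uninjured and 15.2, 14.8 and 8.46 in injured libraries. With 6 points in 2 groups such values are a ranking and not a test.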

How the data were processed

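The authors deposited fragment files, with a count of read pairs per fragment. Build mm10 and Cell Ranger 2.0.0 are named in the submitters' processing notes. Each fragment was used once. Its ends, in barcodes with 2000 or more fragments, were counted within 1 kb of GENCODE M21 starts, over genes with 30 kb flanks and in 500-base tiles above 5 times the median tile. Counts were tested with edgeR 4.0.16 (R 4.3.3; robust quasi-likelihood, TMM, filterByExpr, all 6 libraries, Benjamini-Hochberg adjusted p under 0.05). Clusters came from latent semantic indexing and Leiden (scanpy 1.11.5, resolution 0.5), named by marker lists. Of 4476 barcodes 496 were called doublets and were kept. They were 26.0, 14.1 and 12.4% of the uninjured and 3.21, 10.7 and 11.7% of the injured libraries. Alternatives included DESeq2 1.42.0, other scalings and barcode sets, and leaving out each library. Members and lists were chosen with earlier results of these data known. Named were all members, up to 3 non-overlapping called tiles per locus and direction and up to 3 promoters per list and direction by size of change, and the 5 promoters most like the cluster. Other called tiles were chosen after their values were seen. Scripts were tested on simulated data. Intervals cover counting error only. The deposited peak matrices were not used. Of the 16 called stretches 1 is counted but not otherwise reported here.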

Additional observations from a re-analysis of the deposited data

How the results depend on the processing

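Each group held 3 libraries, and counts were low at Ppbp and Ccl2. Of the 27 tiles called, 5 to 26 were also called without 1 library, 27 with total scaling and 19 with bin scaling, none in the opposite direction. With TMM factors from 10 kb bins the member promoters called were 1 higher and 3 lower, the list promoters 1 and 29, the tiles in the loci 9 and 19, and the cluster locus changed by 0.023 on the log2 scale. Bin scaling also turned the promoter changes of Cxcl5 (−0.057) and Ccl20 (−0.54) and the locus changes of Cxcl10 (−0.0058) and Ccl20 (−0.19). With total cut sites 2 members and 25 list promoters were called lower and 4 list promoters higher, and Ccl20 stood at −0.26. The promoter change of Ccl20, near 0, was also below it with the filter on open tiles (−0.052) and in HBC-like barcodes (−0.13). List promoters called higher, 0 in the reported fit, numbered 4 in HBC-like barcodes, 4 with DESeq2, 2 without the filter on low counts, and 1 each with fragment midpoints, with a 500 bp window and without the shared barcodes, an alternative added after seeing the data. Of all promoters these 6 settings called 4.53, 3.78, 1.92, 2.50, 2.33 and 2.73% higher, against 2.21% in the reported fit. Tiles called lower were 5 without doublets, where Cxcl14 stood at 0.015, and 6 with a tile threshold of 10 times the median, beside 1.22% and 2.68% of all tiles, against 1.66% in the reported fit. At Leiden resolution 1, where cluster 18 was left unnamed, HBC-like barcodes gave 0 member promoters called (2 at resolution 0.5), 8 tiles higher (21) and 7 lower (13), while all promoters called higher went from 4.53 to 1.80% and all tiles from 9.43 to 4.83% higher and from 3.40 to 1.23% lower. Over the fits without 1 library, members called ranged from 0 to 3 higher and 0 to 1 lower, list promoters from 0 to 6 and 2 to 5, tiles from 4 to 23 and 1 to 12, the cluster locus from 0.32 to 0.45, and the Il6 locus from −1.46 to −0.93. The shares of all features called in these fits ranged as well, for promoters from 0.392 to 4.31% higher and 0.176 to 3.44% lower, for tiles from 1.02 to 7.87% and 0.115 to 2.53%, and for loci from 0 to 11.5% and 0 to 12.3%. Among these fits the Cxcl14 promoter ranged from −0.44 to 0.036, the Ccl20 promoter ranged from −0.22 to 0.35 and the Ccl20 locus from −0.050 to 0.35. The cause of these shifts was not tested.

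Replicate numbers are shared by the groups, and the deviations of same-numbered libraries had weak correlations of 0.03, 0.17 and 0.20. Libraries of unlike number had −0.23 to 0.096, so that the values of replicates 2 and 3 were the highest. The reported fit did not treat the libraries as pairs. The replicate block lowered edgeR's estimate of the spread between libraries from 0.142 to 0.106 at promoters and from 0.193 to 0.143 at loci. With the replicate block 3 members were called higher (Ppbp, Cxcl2 and Cxcl3) and 1 lower (Il6), and the list promoters called were 4 higher and 10 lower, beside 4.11% higher and 6.02% lower of all promoters. Of the 27 tiles called in the reported fit, 25 were called with the replicate block.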

Other observations

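Outside the HBC-like barcodes the members had their own levels, given as CPM of all cut sites in each class. Where an interval is given, it is an exact Poisson 95% interval for counting error only. In the sustentacular-like barcodes of the 3 uninjured libraries, 17, 98 and 38 in number, the Il6 promoter had 84.9, 16.9 and 1.76, against 30.1, 24.2 and 14.4 in HBC-like barcodes. The 3 libraries spread widely there. The Cxcl1 promoter had 4.72, 15.2 and 14.1 against 20.6, 21.6 and 11.4, which overlap. The Cxcl14 promoter had 9.43, 4.67 and 3.53 against 27.3, 26.7 and 11.3, lower in each library. Injured libraries held only 7, 2 and 12 such barcodes. The finer clustering called only 104 barcodes sustentacular-like, with 5, 66 and 32 in the uninjured libraries and 1 in injured replicate 3. It called HBC-like a cluster of 70 barcodes, 12 of them from uninjured replicate 1. That cluster shares the leading genes Trim52 and Gm21961 with the sustentacular-like cluster used here, and 45.7% of it were called doublets. Levels in these finer clusters are not given. In 368 barcodes like mature olfactory sensory neurons Il6 had 2.80 and Cxcl14 6.06. The 11 neutrophil-like barcodes held 8 cut sites at the Ccl2 promoter (14.6, interval 6.31 to 28.8) and 13 at the tile 17.1 kb before Cxcl5 (23.8, interval 12.7 to 40.6, against 2.74 in HBC-like barcodes). They held no cut site at the stretch past Ccl20 or at either Il6 stretch, a count that allows up to 6.74 CPM at each.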
